A study of Mus musculus with 4 samples.

Results

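Long noncoding RNAs and the noncoding host genes of small nucleolar RNAs (snoRNAs) were examined in mouse hematopoietic stem and progenitor cells. The 9 genes were taken by symbol from the deposited table: Malat1 and Neat1, which stay in the nucleus, and the snoRNA host genes Gas5, Snhg1, Snhg3, Snhg5, Snhg6, Snhg8 and Snhg12. They are 9 of 13749 genes, each with 1 of the 18691 transcripts listed, and all 9 passed the filter on low values. The cells were LSK cells, the bone marrow fraction that lacks lineage markers and carries Sca-1 and Kit, sorted from C57BL/6 mice aged 8 weeks. The KI group carried Asxl1G643fs/+, a frameshift allele knocked in on 1 of the copies of the chromatin gene Asxl1, and the WT group was Asxl1+/+, with 8 mice named per genotype. Each group has 2 libraries, numbered 1 and 2, and since the labels name no separate animal or pool for each, p-values cover only how far these libraries vary, which may be technical. Levels are the authors' FPKM, a unit that divides the fragments of a transcript by its length and by the size of the library, and every library is given in the order KI-2, KI-1, WT-2, WT-1.

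Malat1 and Neat1 are transcribed from neighbouring genes. Malat1 RNA gathers in nuclear speckles, where splicing factors are stored, and Neat1 RNA is the scaffold of paraspeckles. The snoRNA host genes carry snoRNAs in their introns. After splicing, the introns are trimmed to snoRNAs that guide modification of ribosomal RNA, while the spliced host RNA is exported, often begins with a run of pyrimidines like the mRNAs of ribosomal proteins, and is degraded by nonsense-mediated decay when ribosomes meet its early stop codons.

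The sum of all listed FPKM lay between 324255 and 411542 per library, and sequencing depth is unknown. Asxl1 itself stood between 18.8 and 22.2 FPKM in the 4 libraries, and a frameshift need not change the level of an mRNA. The libraries stand apart by their number: of 11083 genes tested with limma on log2(FPKM + 1), 40.2% differed between numbers 2 and 1 at an adjusted p under 0.05, and 0.0% between KI and WT. These shares cannot be compared, since the fit of KI against WT counts the difference between the numbers as spread. In data simulated with that difference, that fit recovered 0% of genotype changes of 1 or 2 on the log2 scale. The labels do not say what the numbers mark. All 9 marker genes of the LSK fraction were present, with summed levels of 903 FPKM in KI-2, 691 in KI-1, 973 in WT-2 and 701 in WT-1. The 8 granulocyte and monocyte markers were present too and summed to 534 FPKM in KI-2, 889 in KI-1, 442 in WT-2 and 464 in WT-1. Mpo made up most of that sum, at 456 FPKM in KI-2, 712 in KI-1, 385 in WT-2 and 390 in WT-1. Elane was lower in number 2 in both genotypes. Csf1r, Ly6c2 and Itgam were lower in number 2 in KI and higher in WT. Ly6c2 had 26.0 FPKM in KI-2, 44.3 in KI-1, 18.4 in WT-2 and 7.01 in WT-1. The largest falls in number 2, as ratios, were in 3 neutrophil genes of the list, Ngp, Ltf and S100a8. Ngp had 0.650 FPKM in KI-2, 31.5 in KI-1, 0.425 in WT-2 and 11.5 in WT-1. Ltf had 0.180 FPKM in KI-2, 6.18 in KI-1, 0.110 in WT-2 and 2.08 in WT-1, and S100a8, given further on, split the same way, the way of Malat1 and Gas5. Of the markers of B cells 5 of 5 were listed, with sums of 56.6 FPKM in KI-2, 14.3 in KI-1, 28.6 in WT-2 and 12.9 in WT-1. T and NK cell markers (3 of 6 listed) summed to at most 5.76 FPKM, erythroid markers (5 of 6) to 22.2 to 46.2 and stromal or endothelial markers (4 of 5) to 40.3 to 50.6. The part of these cells in the results below was not tested. In bulk RNA, a change in the mix of cells and a change of RNA within cells cannot be told apart.

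The listed transcripts are described by the GENCODE transcript matched to each, and differ in how much of their span is exon (GRCm38). Malat1, at chr19:5795690-5802672 on the minus strand, is a single exon of 6983 bases. The listed Neat1 RNA, at chr19:5842307-5845476 on the same strand, is the short isoform, with 2 exons of 3004 bases together. Its reads cannot be told apart from those of the longer isoform that begins at the same start, which is not analysed here. Malat1 and Neat1 lie 22035 bases apart by their RefSeq gene bounds. Those of Neat1, 5824708 to 5845480, reach closer to Malat1 than the short isoform does. The ends of both RNAs are shown because they are formed differently. Mature Malat1 has no poly(A) tail: a transfer-RNA-like stretch downstream is cut off, and the end is held by a triple helix of 2 U-rich stretches and an A-rich tract, all in capitals in the first sequence, and 292 bases of the annotated transcript follow the tract. The short Neat1 isoform is polyadenylated, and its polyadenylation signal is in capitals in the second. Both are GRCm38 sequence on the strand of the transcript, 5′ to 3′, at chr19:5795922-5796082 and chr19:5842307-5842366.
Malat1 3′ end: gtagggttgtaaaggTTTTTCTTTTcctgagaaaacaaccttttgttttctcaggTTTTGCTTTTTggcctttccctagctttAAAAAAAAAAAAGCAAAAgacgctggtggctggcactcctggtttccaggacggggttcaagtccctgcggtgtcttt
Neat1 short isoform 3′ end: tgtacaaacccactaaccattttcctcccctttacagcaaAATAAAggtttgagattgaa

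Of 27 annotated snoRNAs in the 7 host genes, 20 lie in introns of the listed transcript and 7 inside its exons. Gas5, at chr1:161035166-161038539 on the plus strand, is matched to a form with retained introns, whose 4 exons cover 2556 of 3374 bases and hold 6 of its 9 snoRNAs. Snhg8, at chr3:123507555-123508330 on the minus strand, is matched to 1 unspliced exon of 776 bases that holds Snora24. If the deposited values used these forms, FPKM of both also counts fragments from unspliced RNA and, where long enough to be sequenced, the snoRNAs themselves. The other 5 hosts are matched to spliced forms with all their snoRNAs in introns. Exons make up 54.6% of the span of Snhg5 (chr9:88521052-88522890, minus strand) and 25.8% of Snhg12 (chr4:132308678-132311024, plus strand). The shares are 24.9% for Snhg3 (chr4:132351933-132353686, minus strand), 20.4% for Snhg1 (chr19:8723475-8726443, plus strand) and 19.1% for Snhg6 (chr1:9942025-9944117, minus strand). Snhg3 overlaps Rcc1 on the same strand over 1673 bases and Gm17300 on the other, and Snhg6 overlaps Mcmdc2 on the other strand over 61 bases, so reads there are uncertain. Snhg12 and Snhg3 lie 40908 bases apart.

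**Figure D1:**
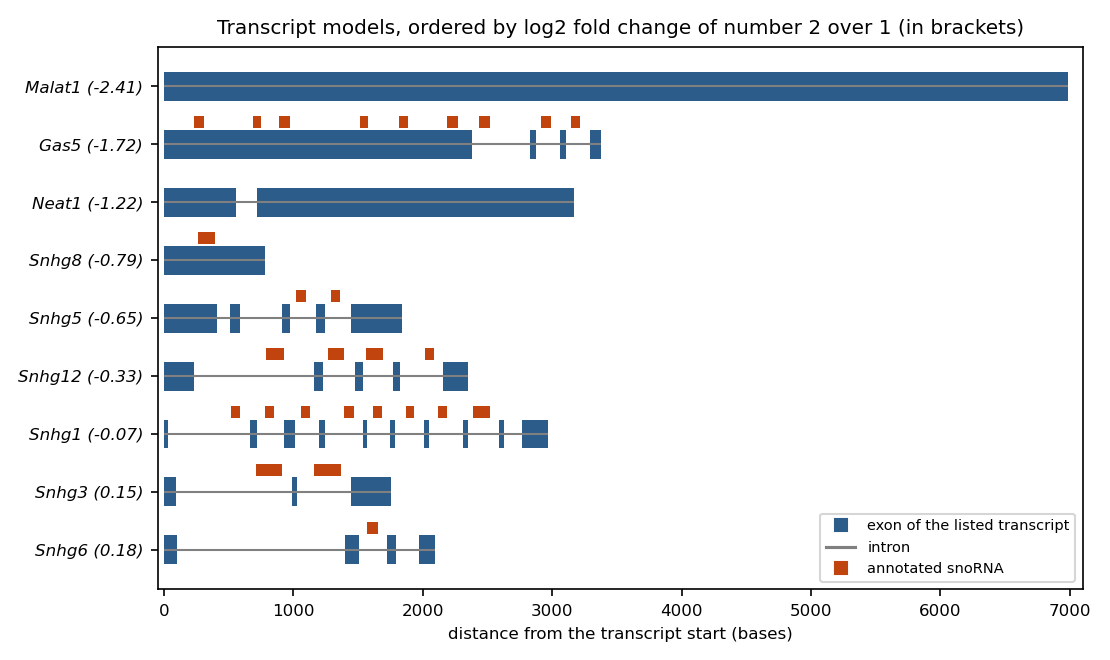
Listed transcript of each of the 9 genes, drawn from its start to its end as distance in bases, with exons as boxes and annotated snoRNAs marked. Malat1 and Snhg8 are single exons, and 6 of the 9 snoRNAs of Gas5 fall inside its exons.

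RefSeq start windows (GRCm38.p6) were found for 7 of the 9 genes, and Gas5 has 2. They are shown for 5 hosts because the pyrimidine run at the start is the feature that host genes share with ribosomal protein genes. Each line holds 50 bases before and 50 after the start on the strand of the gene, with the longest run of C and T that begins in the first 10 transcribed bases in capitals. For Gas5 the start within the listed transcript is given (chr1:161035116-161035215). The others lie at chr3:123508287-123508386 for Snhg8, chr4:132308628-132308727 for Snhg12, chr19:8723437-8723536 for Snhg1 and chr9:88522848-88522947 for Snhg5.
Gas5: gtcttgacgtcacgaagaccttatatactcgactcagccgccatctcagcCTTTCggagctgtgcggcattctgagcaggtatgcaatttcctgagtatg
Snhg8: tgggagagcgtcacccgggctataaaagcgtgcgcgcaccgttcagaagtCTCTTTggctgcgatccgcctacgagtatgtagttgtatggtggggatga
Snhg12: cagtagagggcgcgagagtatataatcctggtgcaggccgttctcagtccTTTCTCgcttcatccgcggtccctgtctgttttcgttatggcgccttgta
Snhg1: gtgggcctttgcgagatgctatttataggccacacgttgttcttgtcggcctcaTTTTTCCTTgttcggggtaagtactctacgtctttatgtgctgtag
Snhg5: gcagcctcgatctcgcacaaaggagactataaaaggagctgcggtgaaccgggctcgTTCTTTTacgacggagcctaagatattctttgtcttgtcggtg

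In Gas5, Snhg8 and Snhg12 the run starts at the first transcribed base and has at least 5 letters, which 4.44% of 32851 RefSeq promoters show. In Snhg1 a run of 9 letters and in Snhg5 one of 7 begins a few bases further on. A run of at least 5 beginning in the first 10 bases was found in 6 of the 7 genes, against 23.5% of all promoters. Gas5 is counted here by the start shown. Its other start had a longest run of 3, and 0 pyrimidines from the first base. In the window from 250 bases before to 50 after the start, read on both strands, TATAAA was found in Snhg8, Snhg3, Snhg5 and Snhg1 (13.6% of all promoters). TGACGTCA was found in Gas5, at the start shown (1.79%), GGGCGG in Gas5, Snhg8, Snhg5 and Snhg1 (35.7%), and CACGTG in 0 of the 7 genes (7.15%). These are matches of letters and were not tested as sites.

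Over the 4 libraries, Gas5 had the highest mean level of the 9 at 121 FPKM, above 96.3% of the genes tested, and Snhg8 the lowest at 15.01 FPKM, above 58.1%. The order depended on the library number. In the libraries numbered 2 the order of means, per length, was Snhg1 at 93.0 FPKM, Gas5 at 55.8, Snhg5 at 40.3, Snhg6 at 38.5, Snhg12 at 37.7, Malat1 at 34.6, Neat1 at 19.2, Snhg3 at 16.6 and Snhg8 at 10.7. In those numbered 1 it was Malat1 at 189 FPKM, Gas5 at 187, Snhg1 at 99.7, Snhg5 at 64.8, Snhg12 at 50.1, Neat1 at 44.8, Snhg6 at 33.7, Snhg8 at 19.3 and Snhg3 at 14.97. Within the libraries numbered 2, Snhg5, Snhg6 and Snhg12 overlapped in their values, Malat1 overlapped Snhg6 and Snhg12, and Neat1 overlapped Snhg3. Within those numbered 1, Malat1 overlapped Gas5, and Snhg12 overlapped Snhg5, Neat1 and Snhg6.

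**Figure D2:**
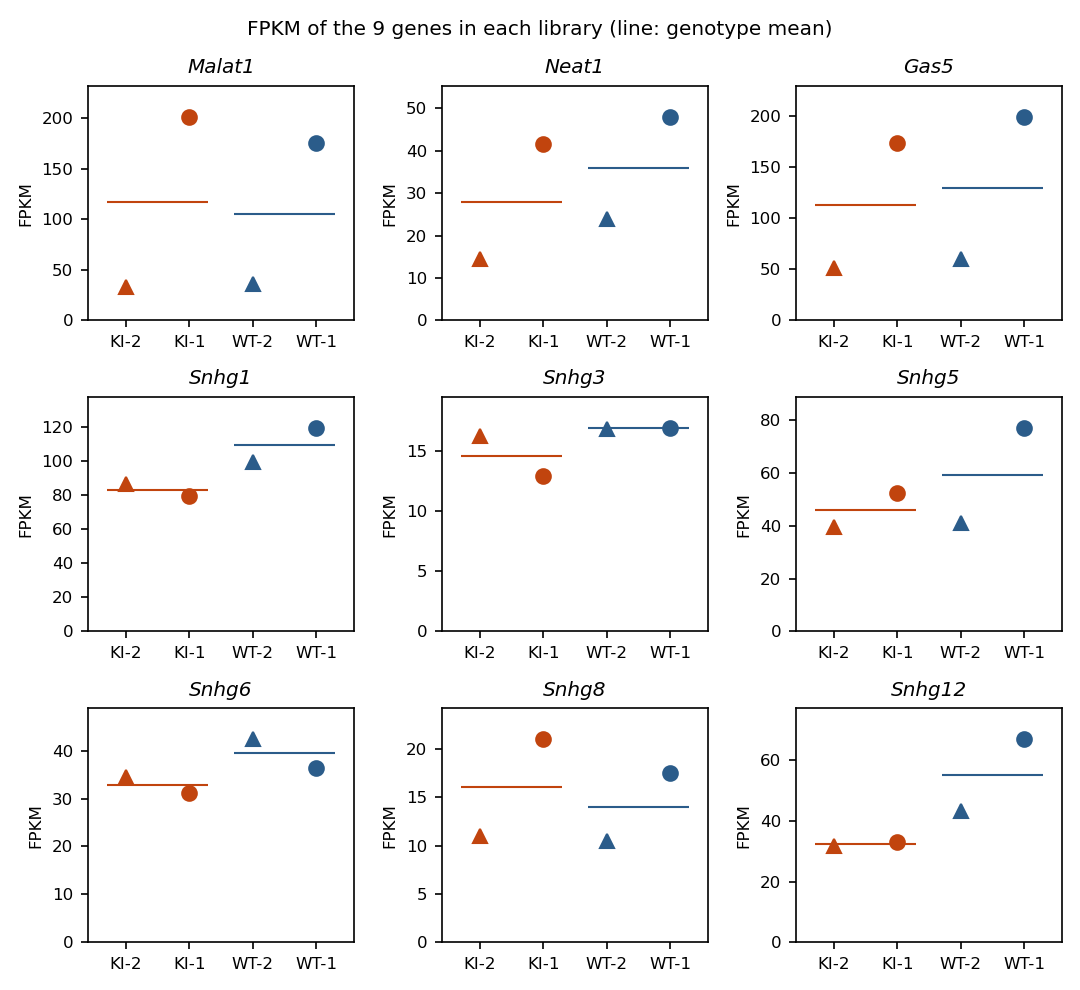
FPKM of the 9 genes in KI-2, KI-1, WT-2 and WT-1, 1 point per library. Each gene has its own panel with its own linear axis, and lines mark the genotype means. Malat1 stands at 33.5 and 35.6 FPKM in the libraries numbered 2, against 202 and 175 in those numbered 1, while Snhg3 stays between 12.96 and 16.97.

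Malat1, the speckle RNA, had 33.5 FPKM in KI-2, 202 in KI-1, 35.6 in WT-2 and 175 in WT-1. Both libraries numbered 2 were far below both numbered 1, and the genotypes overlapped. KI averaged 118 ± 119 FPKM and WT 106 ± 98.9 (SD, n = 2 each), a log2 fold change of 0.06 with SE 1.01, so that the difference between genotypes was much smaller than the spread within them. KI minus WT was -0.09 on the log2 scale in the libraries numbered 2 and 0.20 in those numbered 1, in opposite directions. Number 2 against number 1 gave 34.6 ± 1.54 and 189 ± 18.5 FPKM, a log2 fold change of -2.41 (SE 0.094, limma adjusted p = 0.0007). The level in number 2 was 16.6% of that in number 1 in KI and 20.3% in WT. Of the 11083 genes tested, 6 had a lower log2 fold change between the numbers.

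Neat1, the paraspeckle RNA, had 14.4 FPKM in KI-2, 41.6 in KI-1, 24.0 in WT-2 and 48.1 in WT-1. The libraries numbered 2 again lay below those numbered 1, and within each number KI lay below WT. KI averaged 28.0 ± 19.2 FPKM and WT 36.0 ± 17.05 (SD, n = 2 each). The log2 fold change of KI against WT was -0.45 (SE 0.54, limma adjusted p = 1), at -0.70 within number 2 and -0.20 within number 1. Between the numbers Neat1 fell by 1.22 on the log2 scale in number 2 (SE 0.22, limma adjusted p = 0.0088), to 34.7% of number 1 in KI and 49.9% in WT.

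Gas5, which hosts 9 snoRNAs and is named for its rise in growth-arrested cells, had 51.8 FPKM in KI-2, 174 in KI-1, 59.8 in WT-2 and 199.6 in WT-1. The split by number was close to the same in both genotypes, with number 2 at 29.8% of number 1 in KI and 30.0% in WT. The log2 fold change of number 2 against number 1 was -1.72 (SE 0.11, limma adjusted p = 0.0023), and 19 genes had a lower one. KI stood at 86.5% of WT in the libraries numbered 2 and at 87.1% in those numbered 1. The log2 fold change was -0.20 with SE 0.73 (limma adjusted p = 1), where the SE includes the split by number. With library number as a term the SE was 0.072, with an unadjusted p of 0.0338 and an adjusted p of 0.684 (limma).

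Snhg8, the host of Snora24, had 11.0 FPKM in KI-2, 21.1 in KI-1, 10.5 in WT-2 and 17.5 in WT-1. It was the only one of the 9 that was higher in KI within both numbers, at 104.7% of WT in number 2 and 120.2% in number 1. The genotypes overlapped, with 16.01 ± 7.13 FPKM in KI and 13.997 ± 4.97 in WT (SD, n = 2 each), and the log2 fold change of 0.16 (SE 0.38) had a limma adjusted p of 1. In number 2 it fell by 0.79 on the log2 scale against number 1 (SE 0.12, limma adjusted p = 0.0056).

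Snhg5, the host of Snord50a and Snord50b, had 39.6 FPKM in KI-2, 52.5 in KI-1, 41.0 in WT-2 and 77.1 in WT-1. Both libraries numbered 2 were alike and lay below both numbered 1. The fall in number 2 was 0.65 on the log2 scale (SE 0.17, limma adjusted p = 0.0266). This call was lost in several settings: the limma adjusted p was 0.108 without KI-2 and 0.0931 without WT-2, where the lone library left in number 2 is assumed to vary like those in number 1, and 0.0564 with no filter on low values, 0.0819 per transcript and 0.0521 without the trend of variance with the mean. KI stood at 96.7% of WT in number 2 and at 68.1% in number 1, a log2 fold change over all 4 libraries of -0.30 with SE 0.35 (limma adjusted p = 1).

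Snhg12, the host of Snora16a, Snora44, Snora61 and Snord99, had 31.9 FPKM in KI-2, 33.1 in KI-1, 43.4 in WT-2 and 67.1 in WT-1. Both KI libraries lay below both WT libraries. KI averaged 32.5 ± 0.823 FPKM and WT 55.3 ± 16.8 (SD, n = 2 each). The log2 fold change of -0.72 (SE 0.27) was the largest of the 9 between genotypes. It had an unadjusted p of 0.0362 and an adjusted p of 1 with limma, and the exact two-sided permutation test gave p = 0.333, the smallest that 2 against 2 libraries allow. KI stood at 73.5% of WT in number 2 and at 49.2% in number 1, so WT-1 carried much of the difference. Without WT-1 the log2 fold change was -0.41.

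Snhg1, the host of Snord22 and 7 other snoRNAs, had 86.5 FPKM in KI-2, 79.6 in KI-1, 99.6 in WT-2 and 120 in WT-1. Both KI libraries lay below both WT libraries, with 83.0 ± 4.87 FPKM in KI and 110 ± 14.3 in WT (SD, n = 2 each). The log2 fold change was -0.39 (SE 0.23, limma adjusted p = 1, exact permutation p = 0.333), at -0.20 in number 2 and -0.58 in number 1. Between the numbers it was 0.12 in KI and -0.26 in WT, and limma did not call it (adjusted p = 0.766).

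Snhg6 and Snhg3 showed the same arrangement with smaller differences. Snhg6, the host of Snord87, had 34.5 FPKM in KI-2, 31.1 in KI-1, 42.5 in WT-2 and 36.4 in WT-1, a log2 fold change of -0.26 (SE 0.21), at 81.2% of WT in number 2 and 85.4% in number 1. Snhg3, the host of Snora73a and Snora73b, had 16.2 FPKM in KI-2, 12.96 in KI-1, 16.9 in WT-2 and 16.97 in WT-1, a log2 fold change of -0.21 (SE 0.22). The genotypes were apart in both genes, with KI lower. For both the limma adjusted p was 1, and the exact permutation p of 0.333 cannot go lower. The 2 WT libraries of Snhg3 were close to equal, and KI-1 lay further below them than KI-2. Neither was called between the numbers, with limma adjusted p-values of 0.283 for Snhg6 and 0.402 for Snhg3.

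Taking the 9 genes by genotype, 7 had a lower mean log2 level in KI, against 47.9% of all tested genes, and the same 7 were lower within both numbers, against 25.5%. Malat1 alone went opposite ways in the numbers, as 45.8% of all tested genes did. The median log2 fold change of the 9 was -0.26, against 0.01 over all genes tested. Snhg1, Snhg3, Snhg6 and Snhg12 had KI and WT libraries that did not overlap, with KI lower, where 7.06% of all tested genes did. Of the lists below, so did 4 of 13 other long noncoding RNAs, 4 of 18 decay factors and 11 of 44 histone genes. It was 1 of 12 other noncoding hosts, 2 of 29 protein-coding hosts and 2 of 20 paraspeckle proteins. It was 0 of 17 snoRNA particle proteins, 0 of 20 speckle proteins and 0 of 5 small RNAs. At an unadjusted limma p under 0.05 there was 1 of the 9, Snhg12, against 0.424% (47) of all tested genes. With an adjusted p under 0.05, 0 of the 9 and 0 of 11083 genes were called. That fit counts the difference between the numbers as spread. With library number as a term, Neat1, Gas5, Snhg1, Snhg6 and Snhg12 had an unadjusted limma p under 0.05, 5 of the 9 against 7.1% of all tested genes. None of the 9 then passed the adjusted threshold, as 0.00902% of all genes did, and the lowest adjusted p was 0.678. Since the genes were chosen as a family with earlier results of these data known, these counts describe them and test nothing.

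**Figure D3:**
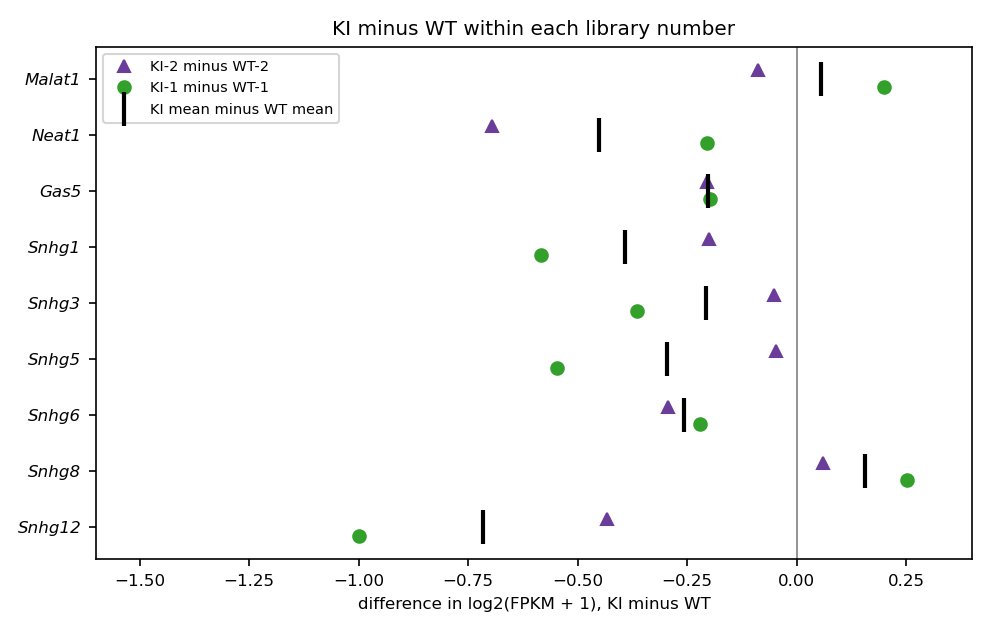
KI minus WT on the log2(FPKM + 1) scale for each of the 9 genes, with 1 point for the libraries numbered 2 and 1 for those numbered 1. Of the 9 genes, 7 lie below 0 in both numbers, Snhg12 has the lowest point in number 1 and Neat1, at -0.70, in number 2, and Malat1 has its points on opposite sides.

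The authors' deposited table compared KI with WT per transcript on normalized log2 values. In the authors' deposited table Snhg12 had a signed fold of -1.45 with a raw p of 0.0224, Snhg1 a fold of -1.23 with p = 0.0250 and Snhg6 one of -1.15 with p = 0.0336. These are 3 of the 9 at a raw p under 0.05 in the authors' deposited table, against 21.6% of its transcripts, and 0 of the 9 had a Benjamini-Hochberg p under 0.05 there. The difference between the numbers is gone from the authors' deposited table: for Malat1 the mean normalized log2 value of number 2 minus number 1 was -0.025.

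By library number, 5 of the 9 were called lower in number 2, Malat1, Gas5, Neat1, Snhg8 and Snhg5, where 4.6% of all tested genes were. The other 4 were not called, of which Snhg1 and Snhg3 went opposite ways in KI and WT, as did 15.8% of all tested genes, and 0 of the 9 were called higher, against 35.6% of all genes. Libraries numbered 2 and 1 did not overlap in the same 5 genes, against 12.7% of all genes. Without KI-2 or without WT-2, which leaves 1 library numbered 2, limma called 4 lower, and without KI-1 it called 7 lower, with Snhg1 and Snhg12 added. Without WT-1 it called the same 5 lower and Snhg3 higher, at 0.33 (limma adjusted p = 0.0444). All genes together had a median log2 fold change of 0.27 between the numbers, so that the 9, with a median of -0.65, are also given relative to it. With each library centred on its median, Malat1 stood at -2.67, Gas5 at -1.98, Neat1 at -1.48, Snhg8 at -1.04, Snhg5 at -0.90, Snhg12 at -0.59, Snhg1 at -0.33, Snhg3 at -0.11 and Snhg6 at -0.074. The signs of Snhg3 and Snhg6, at 0.15 and 0.18 before centring, thus turned. With centring 10.4% of all genes were called lower in number 2 and 9.12% higher.

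**Figure D4:**
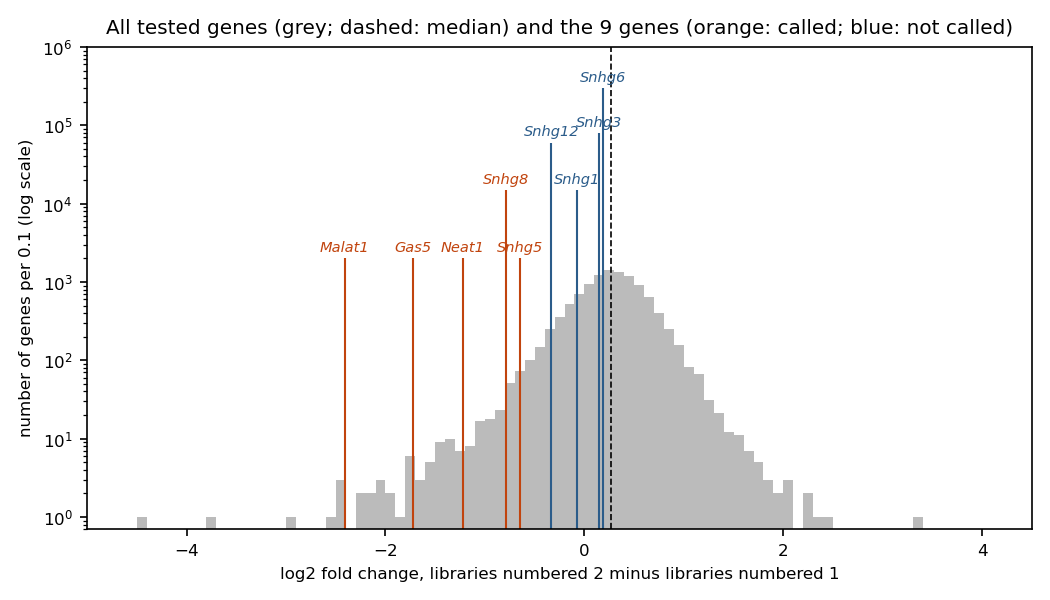
Histogram of the log2 fold change of libraries numbered 2 against number 1 over all 11083 tested genes (log count axis), with the median at 0.27 and lines for the 9 genes. Malat1 at -2.41, Gas5 at -1.72 and Neat1 at -1.22 lie in the left tail, while Snhg3 at 0.15 and Snhg6 at 0.18 lie near the median.

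The 5 genes lower in number 2 are those whose listed transcript has more than 50% of its span in exons, and the 4 others have at most 25.8%. Across the 9 genes the exonic share and the log2 fold change between the numbers had a Pearson r of -0.83 and a Spearman rho of -0.90, a description over 9 genes measured in the same 4 libraries. By median, other transcripts did not show this order. The 60 other noncoding transcripts of several exons with more than 50% of their span in exons had a median log2 fold change of 0.25. For the 406 with 50% or less it was 0.13, and for 45 noncoding transcripts of a single exon 0.20. For coding transcripts of several exons with more than 50% in exons it was 0.41. It was 0.27 for those with 50% or less and 0.27 for those of a single exon. Libraries numbered 2 lay below those numbered 1 without overlap in 26.7% of the 60, in 20.4% of the 406 and in 8.89% of the 45. Over all transcripts outside the 9 genes this share was 13.2%. Number 2 lay above number 1 without overlap in 41.7%, 36.2% and 48.9% of these classes, against 55.4% of all transcripts outside the 9. What sets these 9 apart from each other was not tested.

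Small RNAs with values of their own can be set beside their hosts. They span 126 to 275 bases and lie within the bounds of their host genes, on the same strand. Their FPKM may thus also count fragments from unspliced host RNA. How well RNAs this short were kept in the libraries is unknown, and neither point was tested. Snord22, a box C/D snoRNA in an intron of Snhg1 (chr19:8725866-8725991, plus strand), had 166 FPKM in KI-2, 98.0 in KI-1, 89.3 in WT-2 and 199.6 in WT-1. KI minus WT was 0.89 on the log2 scale in number 2 and -1.02 in number 1, where Snhg1 was lower in KI in both. Snora31, a box H/ACA snoRNA in an intron of Tpt1 (chr14:75847905-75848034, plus strand), had 150.3 FPKM in KI-2, 607 in KI-1, 120.03 in WT-2 and 557 in WT-1. It fell by 2.11 on the log2 scale in number 2 (limma adjusted p = 0.0023), close to Malat1. Its host Tpt1, a translation-linked protein gene, had 2177 FPKM in KI-2, 1270 in KI-1, 2243 in WT-2 and 1374 in WT-1, and rose by 0.74 in number 2 (limma adjusted p = 0.0038). The other 3 small RNAs were low. Snora23, in Ipo7, had 4.85 FPKM in KI-2, 10.8 in KI-1, 1.25 in WT-2 and 6.42 in WT-1 and fell by 1.37 on the log2 scale in number 2 (limma adjusted p = 0.0499), where Ipo7 fell by 0.32 (limma adjusted p = 0.0219). Snord17, in Snx5, stood between 1.36 and 7.86 FPKM and Scarna13, in Snhg10, between 0.787 and 1.69, and neither they nor their hosts were called between the numbers. The sequences of Snord22, which lies in one of the 9 genes, and of Snora31, whose level split by number close to that of Malat1, are shown, with the D box of Snord22 and the ACA box of Snora31 in capitals (GRCm38).
Snord22: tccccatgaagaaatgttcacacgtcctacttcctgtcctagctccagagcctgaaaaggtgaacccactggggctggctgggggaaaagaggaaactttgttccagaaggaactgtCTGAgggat
Snora31: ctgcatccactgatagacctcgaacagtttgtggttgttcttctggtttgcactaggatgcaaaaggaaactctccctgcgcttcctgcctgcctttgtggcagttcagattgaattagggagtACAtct

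Of the 12 tested noncoding snoRNA hosts outside the 9, 2 were called higher in number 2 and 0 lower, with a median log2 fold change of 0.26. Of all tested genes, as above, 35.6% were called higher in number 2 and 4.6% lower, and with centred libraries 9.12% and 10.4%. With centred libraries 1 was called higher and 1 lower, with a median of 0.001. Snhg20, listed as 2810008D09Rik, had 9.34 FPKM in KI-2, 2.27 in KI-1, 10.4 in WT-2 and 2.27 in WT-1, the reverse of Gas5 (log2 fold change 1.73, limma adjusted p = 0.0024). Zfas1, listed as 1500012F01Rik, had 64.9 FPKM in KI-2, 34.6 in KI-1, 60.1 in WT-2 and 49.8 in WT-1 (0.58, limma adjusted p = 0.0337). Between genotypes 10 of these 12 had a lower mean log2 level in KI and 5 were lower within both numbers. Their median KI minus WT was 0.08 in number 2 and -0.44 in number 1, so that it came from number 1. Of 29 protein-coding hosts, most of them ribosomal protein genes, 18 were called higher in number 2, among them Tpt1, Rps3 and Rpl32, and Ncl and Wdr43 were called lower, with a median of 0.41. With centred libraries 14 were called higher and 3 lower, with a median of 0.15. Of the 17 tested proteins that build snoRNA particles, 7 were called higher, a share near the 35.6% of all genes, and 0 lower, with a median of 0.18, and with centred libraries 2 higher and 1 lower, with a median of -0.07. Between KI and WT limma called 0 genes of these 3 lists, and 0 had an unadjusted p under 0.05.

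Genes of the bodies and the decay pathway that these RNAs belong to were counted by list as well. Of 20 nuclear speckle proteins, 10 were called lower in number 2, against 4.6% of all genes, and 0 higher, against 35.6%, with a median log2 fold change of -0.28, and with centred libraries 15 lower, against 10.4% of all genes, and 0 higher, against 9.12%. The same shares apply to the paraspeckle proteins and decay factors. The kinase gene Clk1, which phosphorylates splicing factors, had 49.9 FPKM in KI-2, 105 in KI-1, 55.6 in WT-2 and 143 in WT-1. Pnn, a speckle protein gene, had 58.97 FPKM in KI-2, 106 in KI-1, 58.2 in WT-2 and 97.3 in WT-1. Both fell in number 2, Clk1 by 1.20 on the log2 scale (limma adjusted p = 0.0042) and Pnn by 0.78 (limma adjusted p = 0.0038). Of 20 paraspeckle proteins, 4 were called lower in number 2, Sfpq, Hnrnph3, Tardbp and Taf15, and 3 higher, Rbm14, Nudt21 and Dazap1, with a median of -0.09. With centred libraries 10 were called lower and 0 higher. Of 18 decay factors, 3 were called lower, Upf2, Upf3b and Smg1, and 0 higher, with a median of 0.09 that turned to -0.17 with centred libraries. In KI against WT, limma called 0 genes of these lists, 0 had an unadjusted p under 0.05, and their medians lay between -0.03 and 0.03.

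**Figure D5:**
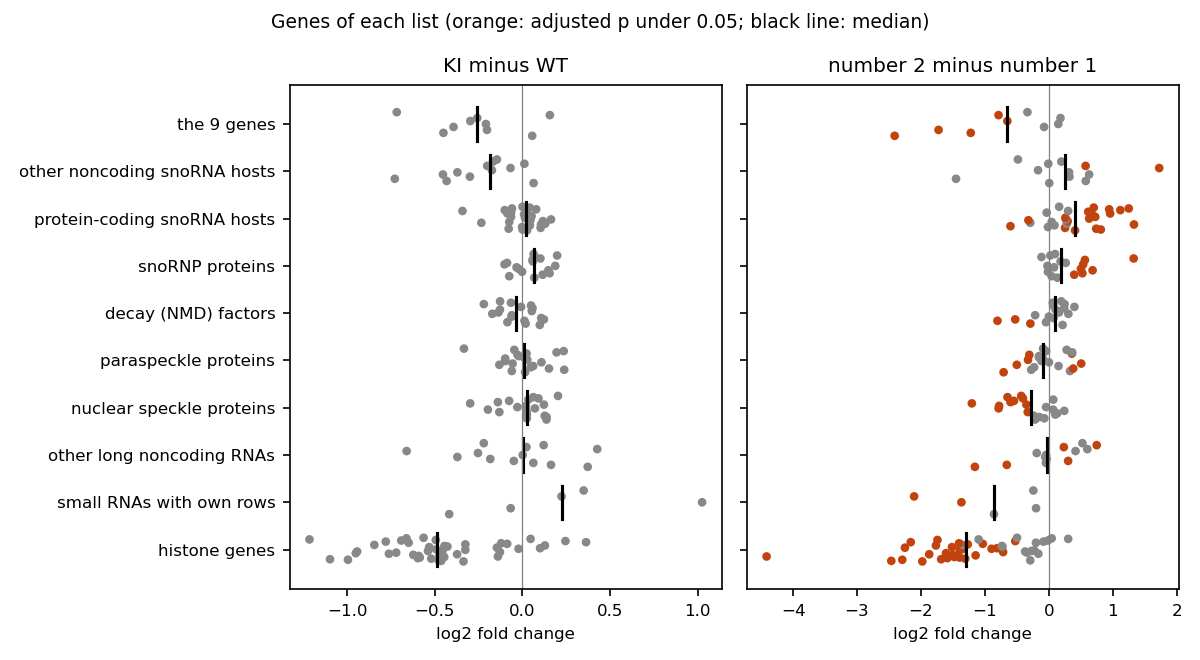
Log2 fold changes of the genes of each list, KI against WT and number 2 against number 1, 1 point per gene, with the 9 genes beside the lists. Replication-dependent histone genes and the 9 genes have the lowest medians between the numbers, at -1.29 and -0.65 among lists of more than 5 genes.

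Among 13 other named long noncoding RNAs, 2 were called lower in number 2, against 4.6% of all genes, and 3 higher, against 35.6%. Xist, the RNA of the inactive X chromosome, had 53.3 FPKM in KI-2, 103 in KI-1, 35.01 in WT-2 and 92.5 in WT-1, a fall of 1.16 on the log2 scale in number 2 (limma adjusted p = 0.0067), and Ftx, its neighbour and activator, fell by 0.66. Peg13, an imprinted RNA, rose by 0.75 in number 2, and Tug1 and 2900097C17Rik by 0.30 and 0.24. With centred libraries 1 was called higher and 2 lower, and 2900097C17Rik turned to -0.021. Long noncoding RNAs of this list thus did not all move like Malat1.

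By likeness of pattern, measured as the root-mean-square difference of log2(FPKM + 1) over the 4 libraries after centring each gene, S100a8 was closest to Malat1 (0.18), followed by Snora31 (0.21) and Hist1h2bn (0.25). S100a8, a granulocyte gene, had 1.18 FPKM in KI-2, 15.02 in KI-1, 2.21 in WT-2 and 11.4 in WT-1. Gm1976 (0.13) and Clk1 (0.21) were closest to Neat1, and Ptbp2 (0.12), Hist1h2ak (0.13) and Hist2h2ac (0.20) to Gas5. Cdk6 (0.043) and Pnn (0.048) were closest to Snhg8, and Hist1h2bc (0.080) to Snhg12. Hist1h2bc, which encodes histone H2B, had 39.9 FPKM in KI-2, 37.2 in KI-1, 48.6 in WT-2 and 84.5 in WT-1, the same order of genotypes as Snhg12. The closest genes to Snhg5 were 4930447C04Rik, 2210039B01Rik and Taf1d (0.063). For the members that moved least, the closest were Plekha7 to Snhg1, Slc22a3 to Snhg3 and Calcrl to Snhg6. With 4 libraries and 11083 genes, close matches are many.

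Genes that neighbour or overlap the 9 are given beside them. Frmd8, near Neat1, lay higher in both libraries numbered 2, where Neat1 lay lower, at 29.4 FPKM in KI-2, 20.2 in KI-1, 29.2 in WT-2 and 18.96 in WT-1. Slc3a2, which begins 106 bases from Snhg1 on the other strand and encodes an amino acid transporter subunit, had 64.4 FPKM in KI-2, 56.0 in KI-1, 60.002 in WT-2 and 63.2 in WT-1. Its genotypes overlapped, where those of Snhg1 did not. Rcc1, which overlaps Snhg3 and encodes a nuclear exchange factor, had 25.3 FPKM in KI-2, 19.5 in KI-1, 21.1 in WT-2 and 18.5 in WT-1. Within each number Rcc1 was higher in KI and Snhg3 lower.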

How the data were processed

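RNA was sequenced from 2 KI and 2 WT libraries of sorted LSK cells; whether it was selected by poly(A) tail, and the sequencing depth, are not given in the sources used here. TopHat and Cufflinks with mm10 (GRCm38) are named in the submitters' processing notes, with versions not given in the sources used here. Per transcript and library, the authors deposited FPKM for RefSeq entries. The authors also deposited normalized log2 values, and a comparison with a signed fold (a score), p-values and adjusted p-values. Groups came from the labels, and 0 sample columns were left unmapped.

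FPKM was added up for each symbol. A mean of at least 1 FPKM kept 11083 genes and left out 2666. In R 4.3.3, limma 3.58.1 fitted log2(FPKM + 1) with a variance trend, 1 fit with genotype alone and 1 with library number alone, two-sided, with Benjamini-Hochberg adjustment over all genes at 0.05. This scale understates changes of low genes. The summing was needed because the table turned out to list transcripts, not genes. Single genes also had an exact permutation test, whose smallest p is 0.333. In simulated data for KI against WT over 11083 genes with the difference between numbers included, the genotype fit recovered 0% of changes of 1 and 0% of changes of 2 on the log2 scale. Library number as a term raised this to 98% and 100%, while calling 42.6 genes simulated as unchanged. In data simulated with no difference between numbers, the genotype fit recovered 96.4% and 100% and called 18 such genes. Exons and snoRNAs came from GENCODE M21 through RefSeq accessions, found for 98.8% of transcripts, with overlapping snoRNA entries merged. Where several GENCODE transcripts matched an accession, the first by identifier was taken. Its bounds can differ from those of RefSeq, as for Snhg1 (8723475 to 8726443 against 8723487 to 8726326), so the deposited values may rest on other exons.

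Named genes were the 9 members, up to 4 genes per list and comparison with the smallest unadjusted p, and the 3 genes most like each member. Neighbours, Tpt1 and the histone list were chosen after values were seen. So were further genes named outside this rule, Rpl32, Ncl, Wdr43, Tardbp, Rbm14, Dazap1 and 2900097C17Rik. Members and lists were chosen with earlier results of these data known. Alternatives were a pseudocount of 0.1, no filter, centred or quantile-normalized libraries, single transcripts, no trend, the other factor as a term, and leaving out each library.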

Additional observations from a re-analysis of the deposited data

Results flagged for a closer look

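Malat1 was lower in KI in the libraries numbered 2, at -0.09 on the log2 scale, and higher in those numbered 1, at 0.20. The difference of these differences, number 2 minus number 1, was -0.29, and the difference was not tested, since 4 libraries leave no residual degrees of freedom for it. Snhg1 was higher in number 2 than in number 1 in KI, at 0.12, and lower in WT, at -0.26, with KI minus WT at 0.38. Snhg3 was likewise higher in number 2 in KI, at 0.30, and about level in WT, at -0.01, with KI minus WT at 0.31. These differences were not tested either. Opposite directions of this kind occurred in 45.8% of all tested genes for KI against WT and in 15.8% for number 2 against number 1.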

How the results depend on the processing

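KI against WT called 0 genes and 0 of the 9 in the settings with all 4 libraries, except that the replicate block gave 1 gene, not one of the 9. Same-numbered libraries deviated together (correlation 0.69 in both pairs), which with 2 pairs does not establish a pairing. Under the block the adjusted p-values of the 9 lay between 0.678 and 0.913. Leaving out 1 library, which unbalances the numbers and leaves 1 group with a lone library assumed to vary like the others, gave 7 to 37 called genes and 0 of the 9. The log2 fold changes of KI against WT then ranged from -1.22 to 1.33 for Malat1, -1.18 to 0.28 for Neat1, -1.07 to 0.66 for Gas5, -0.75 to 0.15 for Snhg5 and -0.28 to 0.60 for Snhg8. Those of Snhg1, Snhg3, Snhg6 and Snhg12 stayed below 0 without each of the 4 libraries. Number 2 against number 1 called 4452 genes, 2163 with median-centred libraries, 2187 with quantile normalization, 2441 per transcript and 1162 to 4808 without 1 library. Malat1, Neat1, Gas5 and Snhg8 kept their call in each of these settings. Snhg3 and Snhg6 turned to -0.11 and -0.074 with centring and to -0.11 and -0.077 with quantile normalization. Without 1 library Snhg1 ranged from -0.37 to 0.22, Snhg3 from -0.034 to 0.33 and Snhg12 from -0.83 to 0.17. The cause of these changes was not tested. The depth is unknown, so no counting error can be given.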

Other observations

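Replication-dependent histone genes, a list added after the data were seen, moved the same way between the numbers as Malat1 and Gas5. Of 55 listed, 44 passed the filter on low values, which low genes can pass through number 1 alone. Hist2h2ac did so, at 0.647 FPKM in KI-2, 3.56 in KI-1, 0.923 in WT-2 and 6.76 in WT-1. Of 44 tested, 28 were called lower in number 2 by limma, against 4.6% of all genes, and 0 higher, against 35.6%. The median log2 fold change was -1.29, and -0.89 with no filter, so these values describe the list and test nothing. Histone mRNAs of this kind end in a stem-loop without a poly(A) tail. With centred libraries the counts were again 28 and 0, against 10.4% and 9.12% of all genes. Between genotypes 39 had a lower mean log2 level in KI, against 47.9% of all genes, and 29 were lower within both numbers, against 25.5%, and limma called 0, with 2 at an unadjusted p under 0.05. Their median KI minus WT was -0.13 in number 2 and -0.83 in number 1, and it ranged from -1.16 to 0.28 without 1 library.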
